A study of Homo sapiens with 21 samples.

Results

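The 36 genes described here are 18 cytosolic tRNA synthetases, 5 bZIP transcription factors, 4 stress effectors and 9 enzymes of amino acid and one-carbon metabolism. They are grouped as the ATF4 response and the cytosolic synthetases, and control of each gene by ATF4 was not tested. They were chosen by symbol from a fixed list, and all 36 were found among the 20111 genes listed in both experiments. Of the 36, 35 passed the filter on low values in the untreated experiment (CHAC1 did not) and all passed it in the vorinostat experiment. The members that passed are compared below with all genes tested in the same comparison.

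Polyadenylated RNA was sequenced from PC-9, a human EGFR-mutant lung cancer cell line, in 2 experiments with 3 replicates per group. In the first, parental cells and the sorted EGFR-low and EGFR-high cells were left untreated and harvested 24 h after seeding. In the second, EGFR-low and EGFR-high cells received DMSO, the vehicle, or 1 µM vorinostat, an inhibitor of histone deacetylases, from 24 h after seeding and for 72 h. EGFR-low and EGFR-high cells are populations and not clones, obtained from the parental line by 6 rounds of sorting the 5 to 10% of cells with the least or the most EGFR, and were kept up by further sorting. All groups carry the EGFR deletion of the line, which the labels write as delE746-A750 in the first parental library and with a different end in each of the 21 libraries. No mouse, donor or clone enters the comparisons, and the replicates are independent experiments of 1 cell line. No separate sort for each replicate is stated, so the p-values are read against the spread between cultures and not between sorts. The values are FPKM, a unit scaled by the length of each transcript and by the fragments of each library, which allows levels of different genes to be set side by side. The number of fragments behind them is unknown, so no counting error is given.

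ATF4 is a bZIP transcription factor whose translation rises when eIF2α is phosphorylated, as happens in amino acid shortage or protein misfolding. It pairs with C/EBP proteins on a composite element in its target genes, and the products import and make amino acids, charge tRNAs and degrade glutathione. DDIT3 (CHOP), ATF5, CEBPB and CEBPG are further bZIP factors of this network. The tRNA synthetases each attach one amino acid to its tRNAs (EPRS attaches 2), and many of their genes carry the ATF4 element. Since ATF4 is controlled mainly in translation, its RNA level alone does not report its activity.

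EGFR RNA separated the sorted groups, at 26.5 to 60.6 FPKM in untreated EGFR-low cells against 160 to 269 FPKM in EGFR-high cells, and at 16.1 to 43.3 against 83.3 to 207 FPKM in the second experiment. The 5 epithelial markers examined were present in every group, with a summed level of 1000 to 1460 FPKM in EGFR-low and 2170 to 3030 FPKM in EGFR-high cells of the second experiment. KRT8, KRT18 and KRT19 were lower and CDH1 and EPCAM higher in EGFR-low cells of that experiment. In both treatments 2 of the 5 markers thus read higher and 3 lower. The part of these markers in the differences between the groups was not tested. Of the fibroblast, leukocyte and endothelial lists 1 marker each reached 1 FPKM, with sums of 1.02 to 5.87, 14.7 to 39.3 (CD68) and 2.23 to 8.30 FPKM, while DCN was listed at 0 in every library. The sum of FPKM per library ran from 467897 to 592942, of which mitochondrial genes held 6.58 to 24.2%.

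The C/EBP-ATF response element was searched as TGATGNAA on both strands from 250 bases before to 50 bases after each RefSeq gene start (GRCh38.p14). RefSeq promoters were given for 29 members (43 windows), and 10 of these (34.5%) held the element, against 4.46% of the 27305 genes in the table. Among the synthetases it was found in 7 of 14 (AARS, CARS, GARS, IARS, MARS, NARS and TARS), and among the other members in 3 of 15 (CEBPG, ASNS and CHAC1). DARS, LARS, VARS, YARS, PSPH, SHMT2 and PYCR1 had no window in the table. The matches of ASNS and CHAC1, the classical targets, are shown with those of AARS and IARS, 2 synthetases that rose in EGFR-low cells of the second experiment and were added after the matches were seen. WARS and KARS rose there as well and held no element. GARS, MARS, NARS and TARS held it and did not pass in DMSO. Each run of 30 bases reads 5′ to 3′ on the strand of the gene, with the element or its reverse complement in capitals.
ASNS, chr7:97872458-97872487, minus strand: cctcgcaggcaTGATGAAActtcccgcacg
CHAC1, chr15:40953251-40953280, plus strand: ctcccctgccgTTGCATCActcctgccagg
AARS, chr16:70289675-70289704, minus strand: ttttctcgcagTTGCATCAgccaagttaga
IARS, chr9:92293698-92293727, minus strand: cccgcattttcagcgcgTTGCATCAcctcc
The element of ASNS begins 68 bases before its start, that of CHAC1 209, that of AARS 187 and that of IARS 13 bases before. ASNS holds the element on the strand of the gene, while the other 3 hold it on the opposite strand. A match is a description of the sequence, and no match in a window says only that these letters are not there.

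ATF4 RNA was abundant in all groups. In untreated cells it was at 216, 205 and 195 FPKM in the EGFR-low replicates, 244, 281 and 237 in the EGFR-high replicates and 202, 270 and 176 in the parental replicates. In DMSO it was at 487, 346 and 361 FPKM in EGFR-low and at 496, 550 and 381 FPKM in EGFR-high cells, and in vorinostat at 450, 362 and 387 against 305, 471 and 522 FPKM. The untreated EGFR-low values lay under every EGFR-high value, while the groups of the second experiment overlapped, and ATF4 passed the test in no comparison.

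**Figure D1:**
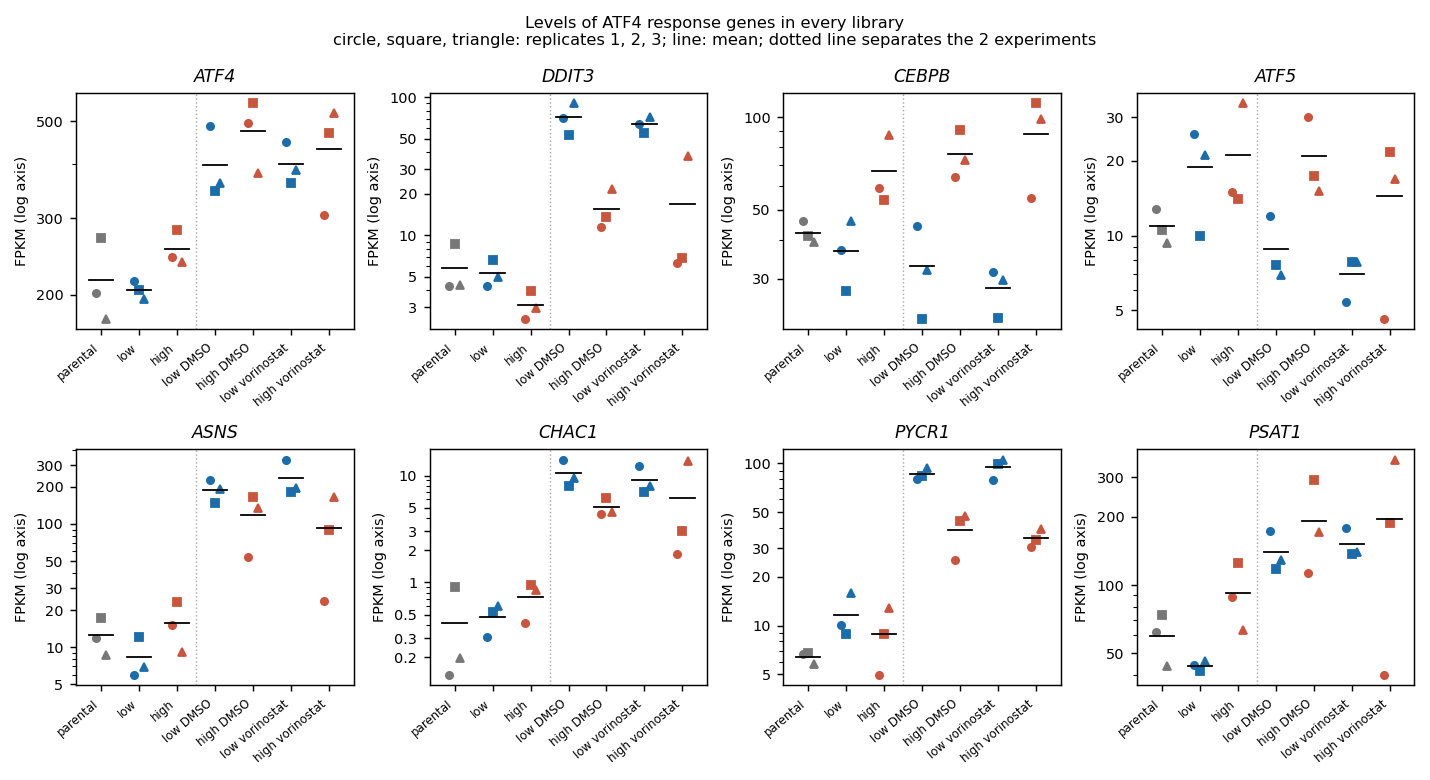
Levels of 8 ATF4 response genes in FPKM on a log axis, for the 7 groups on the x axis, with 1 symbol per replicate, a line at the mean and a dotted line between the experiments. DDIT3 and PYCR1 lie higher in all EGFR-low than in all EGFR-high libraries of the second experiment and CEBPB lower, while ATF4, ATF5, ASNS, CHAC1 and PSAT1 overlap in at least 1 of its treatments.

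DDIT3, ASNS and CHAC1, encoding CHOP, asparagine synthetase and a glutathione-degrading enzyme, were read at very different levels in the experiments. DDIT3 was at 4.25, 6.60 and 5.02 FPKM in untreated EGFR-low cells, 2.49, 3.94 and 2.96 FPKM in EGFR-high cells and 4.31, 8.61 and 4.33 FPKM in parental cells. In DMSO, DDIT3 was at 70.1, 53.6 and 90.0 FPKM in EGFR-low and at 11.6, 13.5 and 21.6 FPKM in EGFR-high cells. The higher level in the second experiment was thus seen in both sorted groups.

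ASNS was at 6.00, 12.1 and 6.92 FPKM in untreated EGFR-low cells, 15.1, 23.4 and 9.20 FPKM in EGFR-high cells and 11.8, 17.3 and 8.68 FPKM in parental cells. In DMSO, ASNS was at 229, 147 and 194 FPKM in EGFR-low and at 54.1, 165 and 136 FPKM in EGFR-high cells. CHAC1 stayed between 0.137 and 0.948 FPKM in the 9 untreated libraries and lay between 1.83 and 14.1 FPKM in the 12 others. The experiments were not tested against each other. Time in culture and the vehicle differ between them. Preparation, passage and sorting of the cells are not stated and may differ as well, and all of these cannot be told apart.

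In DMSO, EGFR-low cells held more RNA of 7 tRNA synthetases, of the proline synthesis enzymes PYCR1 and ALDH18A1 and of DDIT3 than EGFR-high cells, and less of CEBPB and of the serine synthesis enzymes PHGDH and PSPH. Of the 36 members 10 rose and 3 fell (limma adjusted p under 0.05 over all 12236 genes tested), which is 36.1% of them. Of all genes 51.8% were called (31.1% higher and 20.7% lower), so the members hold no excess of calls over the table as a whole. Their median log2 fold change was 0.28, beside 0.12 for all genes. With median-of-ratios scaling, which sets the median gene near 0, 9 members rose and 5 fell, beside 52.3% of all genes called in that fit. In these bulk samples more RNA per cell and more cells that express a gene cannot be told apart.

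Tryptophanyl-tRNA synthetase (WARS) changed most among the synthetases. It was at 122, 259 and 352 FPKM in EGFR-low and at 39.8, 91.4 and 90.3 FPKM in EGFR-high DMSO cells. The 3 EGFR-low values all exceeded the EGFR-high ones, but the replicates of each group differed widely. The log2 fold change was 1.68 (SE 0.48, limma adjusted p = 0.0128, exact permutation p = 0.1, the smallest that 3 against 3 allows). It was lost without EGFR-low DMSO replicate 3 (limma adjusted p = 0.0590) or EGFR-high DMSO replicate 1 (0.0608).

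AARS, the enzyme for alanine, was at 130, 141 and 182 FPKM in EGFR-low and at 55.6, 82.0 and 79.1 FPKM in EGFR-high DMSO cells, a log2 fold change of 1.06 (SE 0.26, limma adjusted p = 0.00535). CARS, the enzyme for cysteine, was at 61.8, 66.8 and 61.8 FPKM against 23.3, 39.0 and 34.9 FPKM, a log2 fold change of 0.98 (SE 0.26, limma adjusted p = 0.00768). In neither gene did the groups overlap. The other 4 that rose were VARS for valine at 0.69, IARS for isoleucine at 0.65, DARS for aspartate at 0.63 and KARS for lysine at 0.61 on the log2 scale. IARS passed narrowly (limma adjusted p = 0.0466) and was lost with median-of-ratios scaling (0.0665), quantile normalization (0.0522), no filter (0.0784) and the GC and length trend removed (0.0747). It was also lost without EGFR-high DMSO replicate 1 (0.194) or any one of the EGFR-low DMSO replicates (0.0696 to 0.141).

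The other 11 synthetases did not pass, with log2 fold changes from -0.38 for QARS, which passed with median-of-ratios scaling (limma adjusted p = 0.0145), to 0.55 for EPRS. Among them GARS (glycine) was at 0.24, MARS (methionine) at 0.31 and NARS (asparagine) at -0.18. GARS and NARS had their highest DMSO level in an EGFR-high library, replicate 2, at 242 and 268 FPKM. The 18 synthetases had a median log2 fold change of 0.38, and none of these 18 was called lower, beside 20.7% of all genes. FARSB, a cytosolic synthetase gene outside the 18 and counted below in a separate list, was called lower at -0.59.

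**Figure D2:**
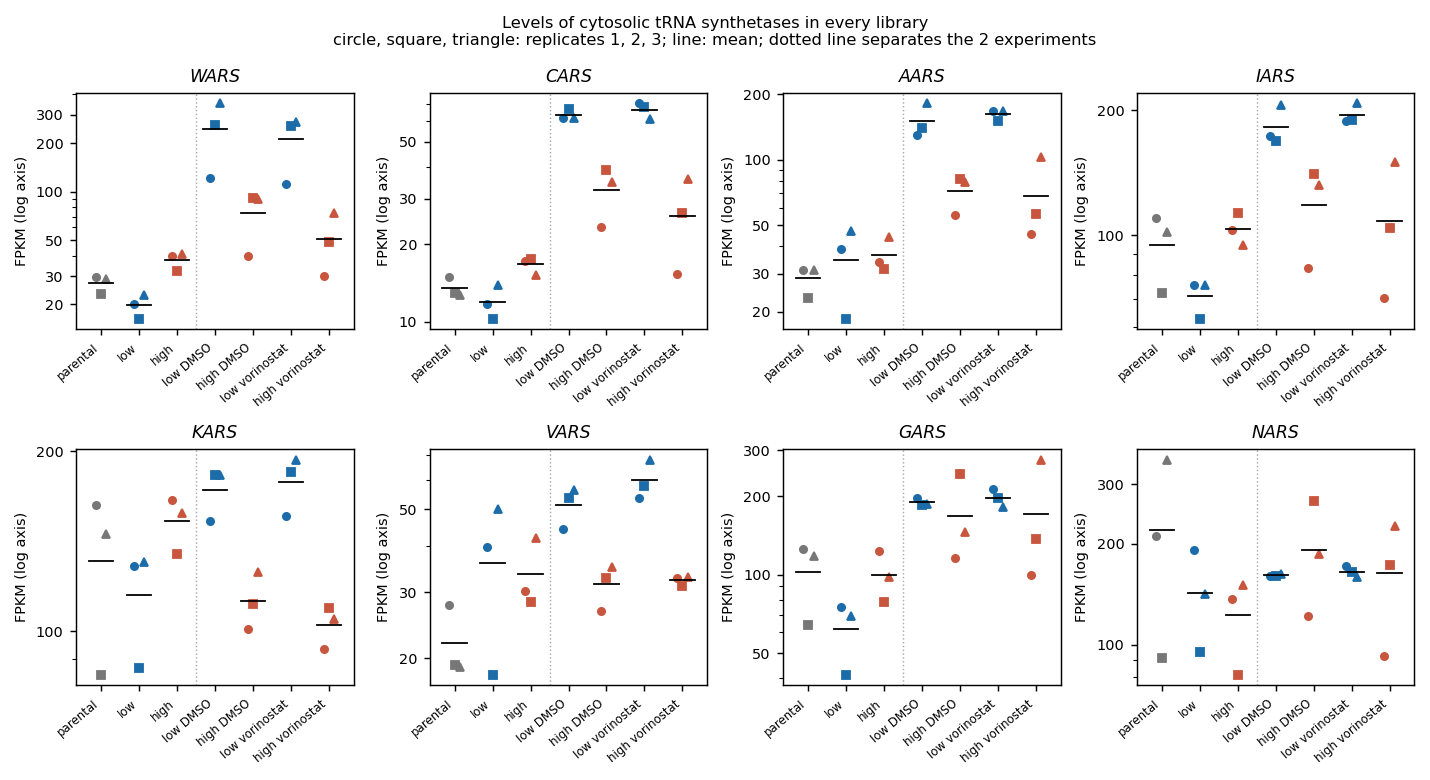
Levels of 8 cytosolic tRNA synthetases in FPKM on a log axis, for the 7 groups on the x axis, with 1 symbol per replicate and a line at the mean. WARS, CARS, IARS and KARS lie lower in untreated EGFR-low than EGFR-high cells and higher in EGFR-low than EGFR-high cells in DMSO, without overlap, while GARS and NARS overlap in DMSO.

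Among the bZIP factors, DDIT3 and CEBPB moved in opposite directions. DDIT3 rose by a log2 fold change of 2.14 (SE 0.51, limma adjusted p = 0.00482) to a mean of 71.3 ± 18.2 FPKM (SD, n = 3) from 15.6 ± 5.34 FPKM (SD, n = 3) in EGFR-high DMSO cells. CEBPB, a C/EBP factor, was at 44.3, 22.3 and 31.99 FPKM in EGFR-low and at 64.2, 90.9 and 72.7 FPKM in EGFR-high DMSO cells. Its log2 fold change was -1.22 (SE 0.29, limma adjusted p = 0.00411) with no overlap.

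ATF5 was at 11.9, 7.62 and 6.90 FPKM against 30.2, 17.4 and 15.1 FPKM, a log2 fold change of -1.13 just outside the threshold (SE 0.44, limma adjusted p = 0.0504) that passed with median-of-ratios scaling (0.0294). ATF4 was at -0.26 and CEBPG, its binding partner, at 0.18, with overlapping groups. None of the stress effectors passed, with CHAC1 at 0.91 (limma adjusted p = 0.132, and 0.0113 with the other groups left out of the fit), SESN2 at 0.35, TRIB3 at 0.25 and DDIT4 at -0.90 (limma adjusted p = 0.114).

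The 9 enzymes did not move as one group. PYCR1, the last enzyme of proline synthesis, was at 80.0, 82.8 and 93.1 FPKM in EGFR-low and at 25.2, 43.8 and 47.5 FPKM in EGFR-high DMSO cells, a log2 fold change of 1.16 (SE 0.21, limma adjusted p = 0.000922). ALDH18A1, the first enzyme of the same path, was at 0.88 (SE 0.13, limma adjusted p = 0.000382), the lowest adjusted p among the members. Neither of these proline genes overlapped between the groups, and both passed under every alternative tried.

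PHGDH, the first enzyme of serine synthesis, was at 111, 73.5 and 73.9 FPKM in EGFR-low and at 118, 184 and 139 FPKM in EGFR-high DMSO cells, a log2 fold change of -0.77 (SE 0.30, limma adjusted p = 0.0470). PSPH, the last enzyme of that path, was at 41.5, 31.0 and 33.2 FPKM against 53.4, 76.7 and 66.0 FPKM, a log2 fold change of -0.87 (SE 0.30, limma adjusted p = 0.0319). Both were lost without the filter on low values (limma adjusted p = 0.0825 and 0.0599) and when EGFR-low replicate 2 or 3 or EGFR-high replicate 2 or 3 was left out (limma adjusted p from 0.0666 to 0.166 over both genes). PSAT1, the enzyme between them, was at -0.37, ASNS at 0.80, and SHMT2 and MTHFD2 of the mitochondrial one-carbon path at 0.33 and 0.50, none of which passed. The DMSO groups did not overlap in 14 members on the higher and 7 on the lower side of EGFR-high cells, beside 69.3% of all genes tested that did not overlap in either direction.

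**Figure D3:**
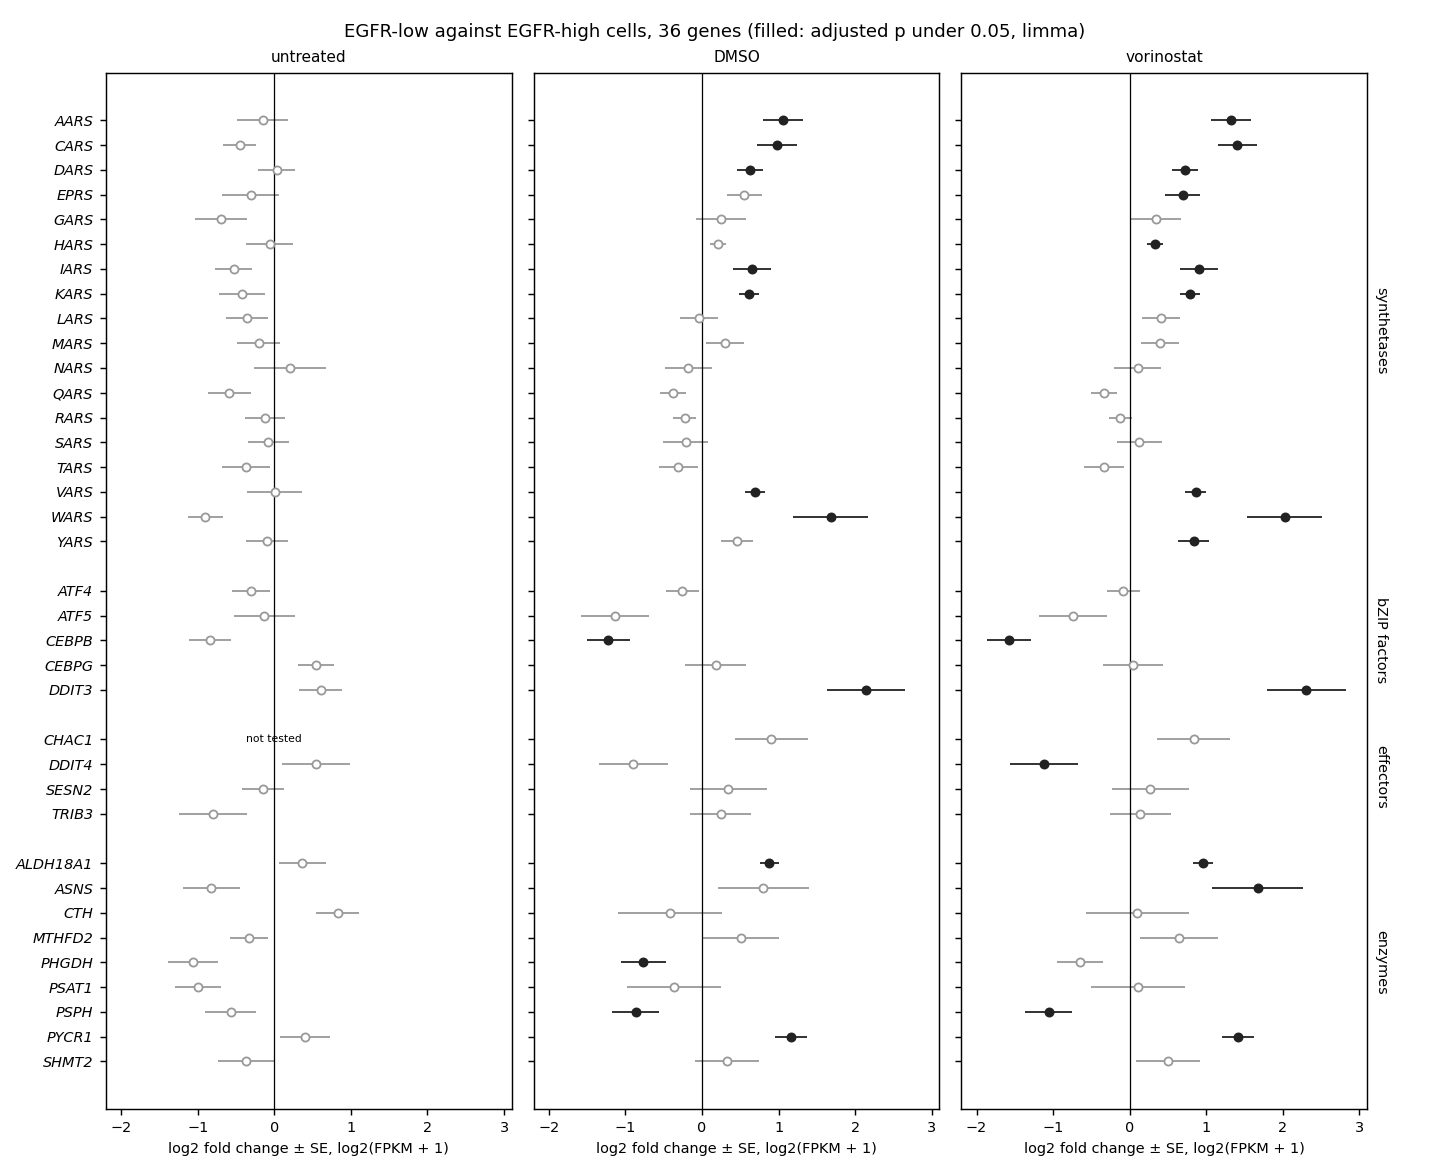
Log2 fold changes on log2(FPKM + 1) with their standard errors for EGFR-low against EGFR-high cells, untreated, in DMSO and in vorinostat, with genes on the y axis ordered by role and filled points at a limma adjusted p under 0.05. No point is filled in untreated cells, while 13 are in DMSO and 17 in vorinostat.

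In vorinostat, the same contrast of EGFR-low against EGFR-high cells called 14 members higher and 3 lower (47.2% of 36), with DDIT3, WARS, ASNS and PYCR1 at the top and CEBPB, DDIT4 and PSPH at the bottom. Of all genes 59.0% were called, 36.2% higher and 22.8% lower, and the median log2 fold change was 0.37 for the members and 0.16 for all genes. With median-of-ratios scaling 13 members rose and 5 fell, beside 59.1% of all genes called in that fit. The libraries compared here are other cultures than those in DMSO, but of the same sorted populations. Both contrasts took their spread from all 12 libraries of the experiment, so their p-values are not independent.

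DDIT3 was at 64.0, 54.6 and 72.1 FPKM in EGFR-low and at 6.25, 6.79 and 37.7 FPKM in EGFR-high vorinostat cells, a log2 fold change of 2.31 (SE 0.51, limma adjusted p = 0.00238). WARS was at 111, 254 and 271 FPKM against 29.97, 49.0 and 73.9 FPKM, a log2 fold change of 2.02 (SE 0.48, limma adjusted p = 0.00373). Both genes had all EGFR-low libraries above all EGFR-high ones. ASNS was at 332, 183 and 197 FPKM against 23.8, 89.5 and 166 FPKM, a log2 fold change of 1.67 (SE 0.60, limma adjusted p = 0.0299). Its EGFR-high values spanned almost the whole range below the EGFR-low ones. ASNS was lost without the filter (limma adjusted p = 0.0600), with the other groups left out of the fit (0.0573), without EGFR-low vorinostat replicate 1 (0.0992) or replicate 3 (0.0516) and without EGFR-high vorinostat replicate 1 (0.105).

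PYCR1 rose by 1.42 (SE 0.21, limma adjusted p = 0.000159), CARS by 1.41 (0.26, 0.000632) and AARS by 1.32 (0.26, 0.00101) on the log2 scale. ALDH18A1, VARS, IARS, KARS and DARS, which had also risen in DMSO, were between 0.72 and 0.95. YARS for tyrosine at 0.84, EPRS for glutamate and proline at 0.69 and HARS for histidine at 0.33 passed here as well, EPRS and HARS less firmly. EPRS was lost without EGFR-low replicate 1 (limma adjusted p = 0.0550) or EGFR-high replicate 1 (0.0771) or 2 (0.0537). HARS was lost with median-of-ratios scaling (0.199), with the other groups left out of the fit (0.0535) and without EGFR-low replicate 2 (0.0744). It was also lost with the GC and length trend removed (limma adjusted p = 0.143), and with that removal and the block (0.12).

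CEBPB was at 31.5, 22.4 and 29.7 FPKM in EGFR-low and at 54.5, 111 and 98.7 FPKM in EGFR-high vorinostat cells, a log2 fold change of -1.58 (SE 0.29, limma adjusted p = 0.000609). PSPH was at -1.06 (SE 0.30, limma adjusted p = 0.0105), and in both genes the groups did not overlap. DDIT4, which encodes an inhibitor of mTORC1, was at 51.1, 47.8 and 59.6 FPKM against 51.8, 102 and 292 FPKM, a log2 fold change of -1.12 (SE 0.45, limma adjusted p = 0.0483). Its groups overlapped, and it was lost with the replicate number as a block (limma adjusted p = 0.0506), with a pseudocount of 0.1 (0.0513), without the filter (0.0874), with the other groups left out of the fit (0.117) and in every fit without 1 library other than EGFR-high vorinostat replicate 1 (0.0707 to 0.155).

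The described members that did not pass in vorinostat were ATF4 at -0.08, ATF5 at -0.74, CHAC1 at 0.84, TRIB3 at 0.14, SESN2 at 0.27, PSAT1 at 0.11, PHGDH at -0.65, SHMT2 at 0.50, MTHFD2 at 0.64, GARS at 0.34, MARS at 0.39 and NARS at 0.11 on the log2 scale. With median-of-ratios scaling PHGDH passed (-0.83, limma adjusted p = 0.0200), and TRIB3, PSAT1 and NARS took the opposite sign. Of the members 14 were higher and 2 lower without overlap, beside 60.8% of all genes tested in either direction.

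The number of calls in this comparison depended in part on 1 library, singled out from these same values. Leaving it out lowers the EGFR-high mean of the members it was highest in, so the added calls are no separate evidence. EGFR-high vorinostat replicate 3 had the highest value of its group in 30 of the 36 members, and without it 21 members were called higher and 2 lower, beside 56.0% of all genes called in that fit. CHAC1 (log2 fold change 1.54, limma adjusted p = 0.00113), MARS (0.72, 0.00634), MTHFD2 (1.30, 0.0149), GARS (0.75, 0.0289), SHMT2 (0.99, 0.0353), SESN2 (0.94, 0.0433) and LARS (adjusted p 0.0452) were called under this setting and no other, while DDIT4 was lost. Without EGFR-high vorinostat replicate 1, at the low end of the group, 12 members were called higher and 7 lower, beside 61.5% of all genes called in that fit, with PHGDH (-1.04, 0.00175) and ATF5 (-1.35, 0.00270) among the latter.

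The replicates of the EGFR-high groups differed in most members together, though not in all. RARS ran the other way in EGFR-high vorinostat cells, at 78.6, 63.8 and 48.7 FPKM, and HARS stayed between 27.7 and 28.9 FPKM. In EGFR-high vorinostat cells replicate 1 was the lowest of the 3 libraries in 32 of 36 members, while of all genes tested 52.9% were lowest in replicate 1 and 35.6% highest in replicate 3. The median deviation of the members from their group mean, on the log2 scale, was -0.63 in replicate 1, 0.02 in replicate 2 and 0.54 in replicate 3, beside -0.10, 0.04 and 0.05 for all genes. The synthetases and the other members both took part, with 15 of 18 and 17 of 18 lowest in replicate 1.

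**Figure D4:**
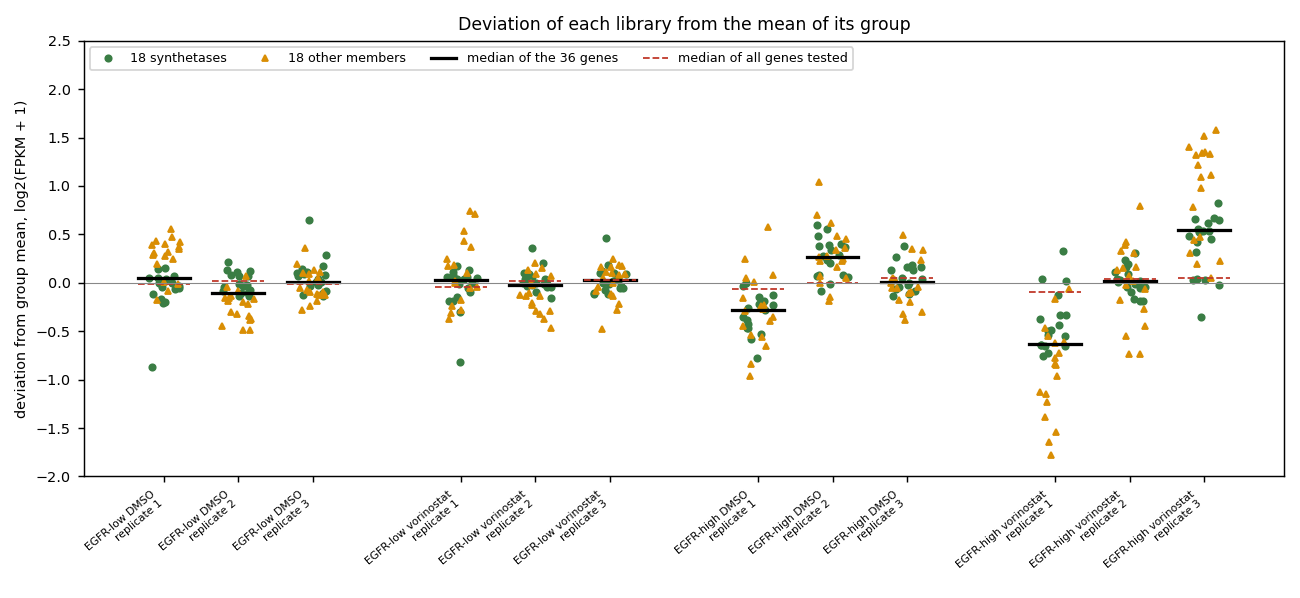
Deviation of each member from the mean of its group in log2(FPKM + 1), for the 12 libraries of the second experiment on the x axis, with the 18 synthetases and the 18 other members as separate symbols and lines at the medians of the members and of all genes. Most members lie low in EGFR-high vorinostat replicate 1 and high in replicate 3, while the median of all genes stays between -0.10 and 0.05.

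PSAT1 shows the size of this spread, at 40.1, 188 and 358 FPKM in EGFR-high vorinostat cells against 178, 138 and 139 FPKM in EGFR-low vorinostat cells. CTH, which makes cysteine from cystathionine, was at 4.88, 19.2 and 51.5 FPKM in the former, and MTHFD2 at 39.2, 110 and 262 FPKM. In EGFR-high DMSO cells replicate 2 was the highest in 28 of 36 members and replicate 1 the lowest in 29, beside 31.6 and 44.6% of all genes. The numbers of the high and low replicates thus differed between DMSO and vorinostat only at the high end.

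The median within-group SD of the members was 0.62 on the log2 scale in EGFR-high vorinostat and 0.34 in EGFR-high DMSO cells, beside 0.25 and 0.18 for all genes. In EGFR-low cells it was 0.17 in DMSO and 0.16 in vorinostat, beside 0.14 and 0.14. In the EGFR-high groups 31 and 30 of the 36 members varied more than the median gene, and in the EGFR-low groups 21 and 21 did. Mitochondrial genes held 24.2% of the FPKM in EGFR-high vorinostat replicate 1 and 18.6% in EGFR-high DMSO replicate 1, against 7.27 to 10.5% in the other EGFR-high libraries of the second experiment. EGFR-low vorinostat replicate 1 held 22.2% and had the highest ASNS level of all, and the part of the mitochondrial share in the spread was not tested.

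In untreated cells no member passed the test between EGFR-low and EGFR-high cells (limma adjusted p from 0.0632 to 0.998, 35 tested), while 3.81% of the 11305 genes tested were called. Most members read lower in EGFR-low cells, 26 of 35, with a median log2 fold change of -0.31 beside -0.03 for all genes. At an unadjusted p under 0.05, 6 members passed, beside 13.5% of all genes. The groups did not overlap in 3 members that read higher and 10 that read lower in EGFR-low cells, beside 20.6% of all genes.

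WARS came nearest to the threshold. It was at 20.0, 16.4 and 23.0 FPKM in EGFR-low, 39.9, 32.2 and 41.0 FPKM in EGFR-high and 29.4, 23.1 and 28.8 FPKM in parental cells. All EGFR-low values lay below the parental ones, which in turn lay below those of EGFR-high cells. Between the sorted groups the log2 change was -0.90 (SE 0.23, limma adjusted p = 0.0632, exact permutation p = 0.1).

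Labels and methods state no pairing, and the replicate numbers were treated as pairs here from the correlations of these same values. With the number as a block 1 member was called higher and 5 lower, beside 8.54% of all genes called in that fit. The limma adjusted p with the block was 0.00747 for WARS, 0.0310 for PSAT1 (log2 fold change -0.998), 0.0318 for GARS (-0.70), 0.0380 for ASNS (-0.82) and 0.0397 for CEBPB (-0.84), all lower in EGFR-low cells. CTH was higher (0.83, limma adjusted p = 0.0411). PHGDH, at 38.1, 21.9 and 41.3 FPKM in EGFR-low against 54.2, 76.9 and 79.4 FPKM in EGFR-high cells, had the largest log2 fold change at -1.06 and did not pass with or without the block. With a trend over GC content and transcript length removed, an alternative added after the data had been seen, PHGDH passed (-0.95, limma adjusted p = 0.0353), and with the block as well (0.0130).

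Of the others described throughout, DDIT3 was at 0.60, NARS at 0.21, ATF5 at -0.13, SESN2 at -0.15, AARS at -0.15, MARS at -0.21, ATF4 at -0.31, MTHFD2 at -0.34, SHMT2 at -0.37, PSPH at -0.57 and TRIB3 at -0.80 on the log2 scale. DDIT3 and CEBPG had all EGFR-low libraries above all EGFR-high ones. DDIT3 passed with the GC and length trend removed (0.67, limma adjusted p = 0.0223) and with the block as well (0.00491), and PSPH passed with both (-0.49, 0.0230). The standard errors of the members ran from 0.22 to 0.47.

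Against parental cells no member passed in either sorted group. Of the members, EGFR-low cells held 16 at a higher and 19 at a lower level than parental cells, with a median of -0.05 (0.06 for all genes, 1.60% called), and 2 passed at an unadjusted p under 0.05, beside 14.8% of all genes. The described members ran from GARS at -0.70, PSPH at -0.62, ASNS at -0.55, NARS at -0.47, WARS at -0.44, PSAT1 and MTHFD2 at -0.40 and MARS at -0.29 over DDIT3 at -0.06, ATF4 at -0.05, SESN2 and PHGDH at 0.08 to AARS at 0.19, TRIB3 at 0.24, SHMT2 at 0.50 and ATF5 at 0.66.

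EGFR-high cells held 25 at a higher and 10 at a lower level than parental cells, with a median of 0.24 (0.07 for all genes, 0.0708% called), and 6 passed at an unadjusted p under 0.05, beside 9.67% of all genes. PHGDH was the highest of the 35 at 1.14 (limma adjusted p = 0.507). Of the others described throughout, TRIB3 was at 1.04, SHMT2 at 0.87, ATF5 at 0.79, PSAT1 at 0.60, WARS at 0.46, AARS at 0.34, ASNS at 0.27, ATF4 at 0.25 and SESN2 at 0.23. GARS was at -0.00, PSPH at -0.05, MTHFD2 at -0.06, MARS at -0.09, DDIT3 at -0.66 and NARS at -0.67. Both comparisons share the parental libraries, and the values are given side by side only.

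Of 35 members tested in both experiments, 4 synthetases differed in opposite directions without overlap in either (11.4%, beside 5.81% of 11118 genes). They were WARS at -0.90 in untreated and 1.68 in DMSO cells, IARS at -0.53 and 0.65, CARS at -0.45 and 0.98 and KARS at -0.42 and 0.61 on the log2 scale. None of these 4 passed in untreated cells in the main fit. KARS was at 128, 86.6 and 130 FPKM in untreated EGFR-low against 166, 135 and 158 FPKM in EGFR-high cells, and at 153, 182 and 182 against 101, 111 and 125 FPKM in DMSO. The difference between the experiments was not tested. CEBPB lay below EGFR-high cells without overlap in all 3 contrasts of EGFR-low with EGFR-high cells.

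No member passed the test of vorinostat against DMSO. In EGFR-low cells 21 members read higher and 15 lower than in DMSO, with a median log2 fold change of 0.03 (-0.03 for all genes). In EGFR-high cells 6 were higher and 30 lower, with a median of -0.13 (-0.06 for all genes). The adjusted p-values (limma adjusted p from 0.94 to 1.0) left none near the threshold, none passed at an unadjusted p under 0.05, and 0% of all 12236 genes passed either, with 115 and 409 genes at an unadjusted p under 0.05. The table as a whole therefore shows no response to the labelled treatment with these tests, and EGFR itself was at 16.1 to 19.7 FPKM in EGFR-low vorinostat against 17.7 to 43.3 FPKM in EGFR-low DMSO cells, and at 101 to 207 FPKM in EGFR-high vorinostat against 83.3 to 152 FPKM in EGFR-high DMSO cells.

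In EGFR-low cells the described members ran from ATF5 at -0.28, PSPH at -0.25, CHAC1 at -0.19, WARS at -0.18, DDIT3 at -0.14, MTHFD2 at -0.09, SHMT2 and PHGDH at -0.06 to ATF4 at 0.02, NARS at 0.04, GARS at 0.06, TRIB3 at 0.07, MARS and SESN2 at 0.10, AARS at 0.12, PSAT1 at 0.13 and ASNS at 0.29. In EGFR-high cells they ran from ATF5 at -0.67, ASNS at -0.58, WARS at -0.52, PSAT1 at -0.35, DDIT3 at -0.31, NARS at -0.25, MTHFD2 and SHMT2 at -0.23, PHGDH at -0.17, ATF4 at -0.16, AARS at -0.15 and CHAC1 at -0.13 to PSPH at -0.05, GARS at -0.04, MARS at 0.01, SESN2 at 0.18 and TRIB3 at 0.18. The standard errors ran from 0.10 to 0.68.

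**Figure D5:**
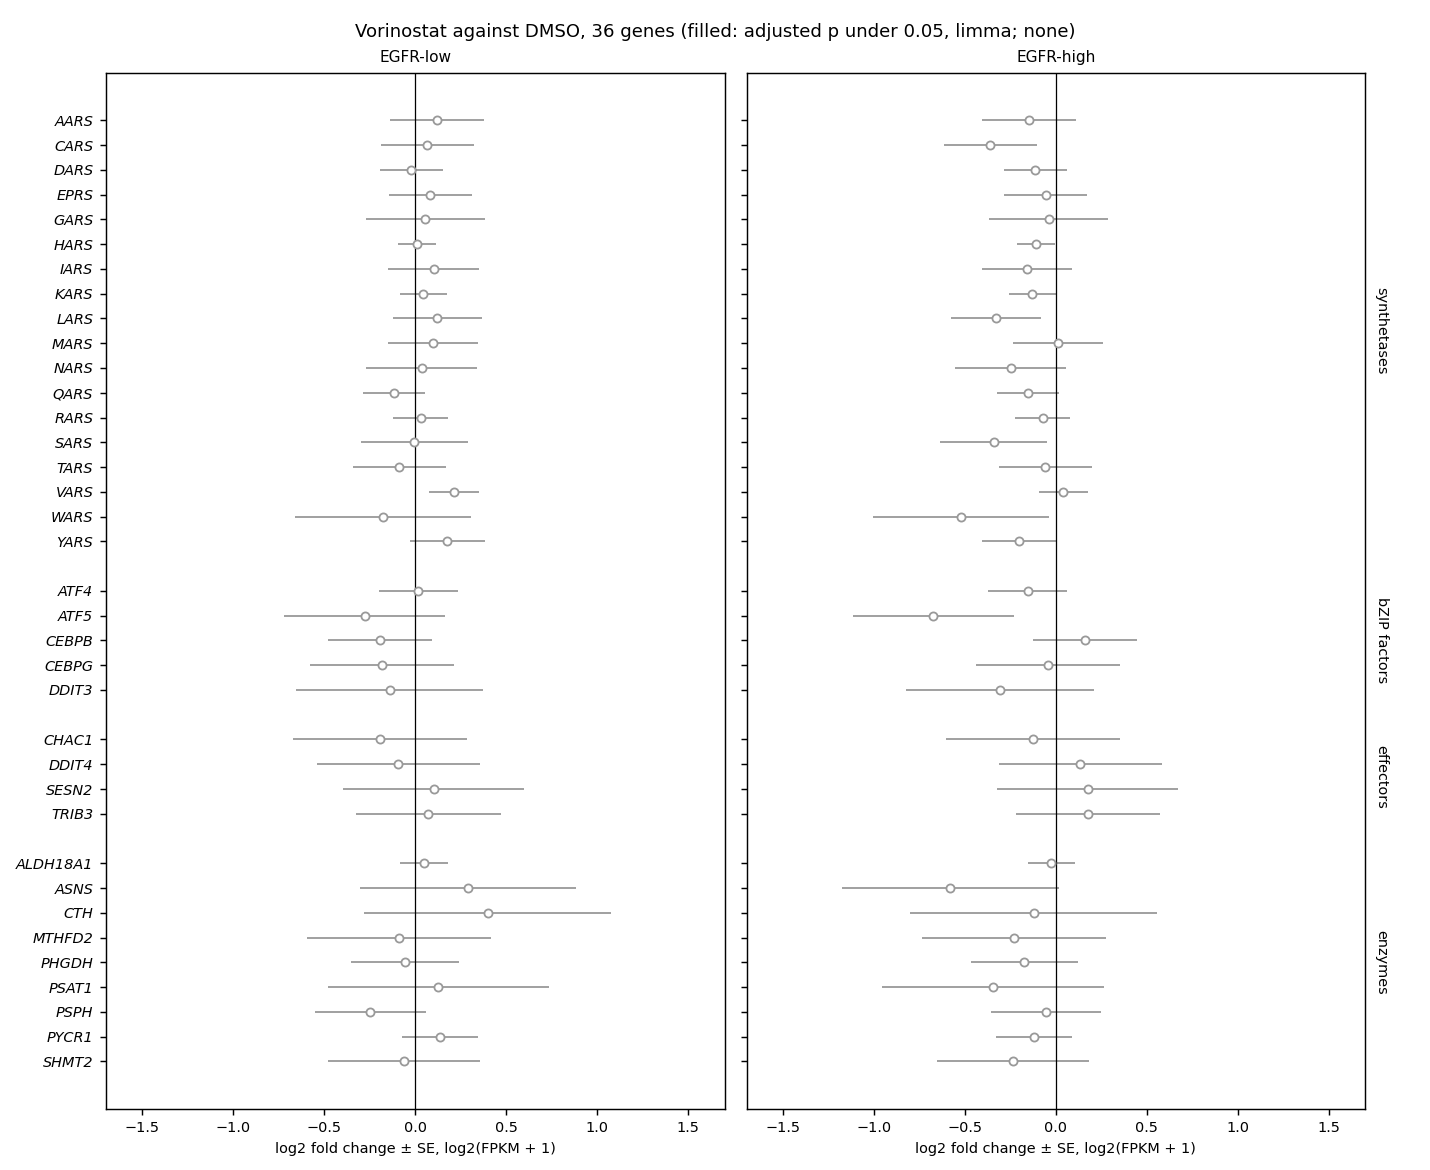
Log2 fold changes on log2(FPKM + 1) with their standard errors for vorinostat against DMSO in EGFR-low and EGFR-high cells, with the 36 genes on the y axis by role. All points are open (limma adjusted p of at least 0.94), and 30 of the 36 lie below 0 in EGFR-high cells.

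The difference of the vorinostat response between EGFR-low and EGFR-high cells, tested as an interaction, passed for no member (limma adjusted p = 0.999 for all 36) and for 0% of all genes, with 215 of them at an unadjusted p under 0.05. The members' median was 0.15 and that of all genes 0.04 on the log2 scale. ASNS had the largest value of the 36 at 0.87 (SE 0.84). Of the others described throughout, PSAT1 was at 0.47, ATF5 at 0.39, WARS at 0.34, NARS at 0.28, AARS at 0.27 and ATF4, SHMT2 and DDIT3 at 0.17. MTHFD2 was at 0.14, PHGDH at 0.12, GARS and MARS at 0.09, CHAC1 and SESN2 at -0.07, TRIB3 at -0.11 and PSPH at -0.19.

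Genes next to the members in the pathway were described from lists written alongside. Between EGFR-low and EGFR-high cells, 3.81% of all genes were called untreated, 51.8% in DMSO and 59.0% in vorinostat. The shares called in these lists ran from 0 to 16.0% untreated, 13.3 to 47.1% in DMSO and 33.3 to 60.0% in vorinostat. No list thus exceeded the table in DMSO. Of 28 other ATF4 targets, 25 were tested in untreated cells, and 2 rose and 2 fell in EGFR-low against EGFR-high cells. The cytokine gene GDF15 rose by 2.59 and the cystine transporter SLC7A11 by 1.74, while the AP-1 repressor JDP2 was at -1.86 and the transporter SLC1A4 at -0.94. In DMSO 7 of 26 rose and 3 fell, with a median of -0.09. FAM129A was at -2.73, GDF15 at 1.59 and SLC7A5, a chain of the large neutral amino acid transporter, at 1.55. SLC7A5 was at 335, 361 and 384 FPKM in EGFR-low and at 72.0, 150 and 169 FPKM in EGFR-high DMSO cells. In vorinostat 8 of 26 rose and 3 fell, led by FAM129A at -3.03, SLC7A5 at 1.93 and STC2 at -1.81.

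Of 17 mitochondrial tRNA synthetases, which charge tRNAs inside the organelle, none passed in untreated cells, 5 rose and 3 fell in DMSO and 6 rose and 4 fell in vorinostat. WARS2 was at -0.86 in DMSO and -1.16 in vorinostat, and YARS2 at -0.64 and -0.87. WARS and WARS2, for the same amino acid, thus passed in opposite directions in both treatments. Of 5 other genes of the cytosolic synthetase complexes, AIMP2 rose by 0.49 and FARSB was at -0.59 in DMSO, and AIMP2, AIMP1 and FARSB were at 0.80, 0.54 and -0.65 in vorinostat, with none called in untreated cells.

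Upstream of ATF4 few genes passed. The list of 15 genes covered eIF2 kinases, phosphatases, eIF2, eIF2B and regulators of these. None passed in untreated cells and 2 rose in DMSO, EIF2S1 (eIF2α) by 0.72 and EIF2AK4 (the amino acid sensor GCN2) by 0.44. In vorinostat 5 rose, led by IMPACT (a regulator of GCN2 and not a kinase) at 0.77, EIF2AK2 at 0.68 and EIF2S1 at 0.67.

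Of 18 chaperones and folding factors of the XBP1 and ATF6 branches, EDEM1 at -1.41 was the 1 gene called in untreated cells. In DMSO 3 rose and 4 fell (SDF2L1 at 1.41, SEL1L at 1.00, HSP90B1 at -0.61), and in vorinostat 3 rose and 3 fell (SDF2L1 at 1.71, SEL1L at 1.18, HSP90B1 at -0.77).

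Among 18 other enzymes of serine, proline and sulfur amino acid metabolism, CBS, which makes cystathionine for CTH, was at -3.41 and ASS1 at -1.62 in untreated EGFR-low against EGFR-high cells. In DMSO 6 of 17 rose and 2 fell, led by PRODH, which degrades proline, at 3.72, GOT1 at 1.36 and OAT at 1.26, and in vorinostat 8 rose and 1 fell, among them PRODH at 3.64 and GOT1 at 1.84. CBS was at 0.378, 0.260 and 0.306 FPKM in untreated EGFR-low and at 12.8, 10.9 and 15.5 FPKM in EGFR-high cells, but at 37.5, 35.8 and 44.2 against 16.7, 29.5 and 26.5 FPKM in DMSO, above EGFR-high cells without overlap. Against parental cells GDF15 at 2.67, EDEM1 at -1.20 and CBS at -2.24 were the genes called in EGFR-low cells and none was called in EGFR-high cells over these 6 lists, and vorinostat against DMSO called none in them.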

How the data were processed

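The deposited values were used and no reads. Per the submitters' processing notes, the tools named were STAR 2.5.1b, Cufflinks 2.2.1 and DESeq2 1.10.1 with the build hg19. The authors deposited a table per experiment that its name calls counts, but the values are not whole and were treated as FPKM, normalized by the authors to length and library. The unit was inferred from the values, and the depth is unknown.

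A gene entered the tests of an experiment if 3 or more of its libraries reached 1 FPKM (11305 and 12236 genes). The model was limma 3.58.1 under R 4.3.3 on log2(FPKM + 1) (eBayes with a mean-variance trend), with 1 mean per group and all groups of an experiment in the fit. P-values were adjusted by Benjamini-Hochberg over all genes tested, and a gene was called at an adjusted p under 0.05. The added 1 makes fold changes of low genes smaller than ratios of FPKM. For single genes the mean FPKM of 3 against 3 libraries was also set against every exchange of labels (exact permutation test, two-sided). The experiments were fitted separately and not tested against each other. The fit was tested on simulated data. Figures and other steps used Python 3.11.15, pandas 2.3.3 and matplotlib 3.10.9.

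The members and lists were chosen with earlier results of these data known. Called members are named where 12 or fewer were called and otherwise the 6 with the largest change in each direction, 17 members were described in every comparison and up to 3 called genes per other list were named. Some genes of these lists are not reported here. SLC7A5, KARS and the library-specific calls were described further after their values were seen.

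Deviations of same-numbered libraries from the means of their groups had correlations over genes of 0.343, 0.73 and 0.689 for the untreated sorted groups, 0.267, 0.302 and 0.329 for vorinostat and DMSO in EGFR-low cells, and 0.353, 0.351 and 0.163 for the sorted groups in vorinostat. The numbers were treated as pairs in these comparisons, where each pair exceeded 0.1, and the other comparisons had at least 1 pair under 0.1. Neither labels nor methods state a pairing, and libraries with different numbers were not correlated for comparison. As alternatives, the pseudocount was set to 0.1 or 5 and the filter dropped, beside median-of-ratios scaling, a stricter filter (5 FPKM, 3 libraries), quantile normalization, fits of 2 groups alone, the replicate block, each library left out and, added after the data had been seen, removal of a smooth trend with GC content and transcript length, alone and with the block. Symbols were matched to RefSeq promoters (GRCh38.p14) by symbol or synonym.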

Additional observations from a re-analysis of the deposited data

Results flagged for a closer look

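Of the tRNA synthetases, 4 differed between EGFR-low and EGFR-high cells in opposite directions in the 2 experiments, with every EGFR-low library on one side of every EGFR-high library in each. The log2 fold changes in untreated cells and in DMSO were -0.90 and 1.68 for WARS, -0.53 and 0.65 for IARS, -0.45 and 0.98 for CARS and -0.42 and 0.61 for KARS. The difference between the experiments was not tested. It cannot be told apart from the time in culture and the vehicle, which differ between the experiments. Nor can it be told apart from preparation, passage and sorting of the cells, which are not stated and may differ. Of all genes tested in both, 5.81% showed such a reversal without overlap, beside 11.4% of the 35 members. None of the 4 passed in untreated cells in the main fit (lowest limma adjusted p among the members 0.0632). In DMSO the calls of WARS and IARS were lost in some settings. The members were chosen with earlier results of these data known.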

How the results depend on the processing

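For EGFR-low against EGFR-high cells the count of called members ran from 10 to 18 in DMSO and from 14 to 19 in vorinostat under the settings other than leaving out a library, and the counts of both vorinostat comparisons and of their difference stayed at 0. The share of all genes called ran from 39.0 to 57.7% in DMSO and from 46.3 to 63.1% in vorinostat under these settings. Leaving out 1 library at a time gave 9 to 13 and 14 to 23, and 0 to 0 in the other 6 comparisons. Beside the first 2 ranges, 40.3 to 50.6% and 51.1 to 61.5% of all genes were called. In untreated EGFR-low against EGFR-high cells 0 members were called, and 1 was without the filter, 1 with quantile normalization, 6 with the replicate block, 5 with the GC and length trend removed and 15 with that removal and the block. Of all genes 3.99, 4.28, 8.54, 8.44 and 22.4% were called in these 5 fits, in that order. Against parental cells the count for EGFR-low rose from 0 to 1 with the block, 1 with the trend removed and 8 with both, and for EGFR-high to 1 with both, beside 4.64, 4.61, 20.8 and 0.687% of all genes. The block was also fitted where the numbers were not treated as pairs. Among the comparisons treated as paired it changed, beside the untreated calls, the call of DDIT4 in vorinostat. No called member took the opposite sign under any setting. Of 2007 recomputed values of members that were not called, 152 changed sign. The cause of these differences was not tested. With 3 replicates and unknown depth, changes smaller than the spread between replicates could not be seen, above all in EGFR-high cells of the second experiment.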
